A study of Mus musculus with 24 samples.

Results

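Lacrimal gland RNA was compared between testosterone (T)-treated and placebo-treated female NOD mice. The arrays were chosen by their labels, which name the strain, the tissue and the pellet, and no measured value entered the choice. They were 12 of the 24 arrays of the series, and came from 6 of its 12 pools of glands. The 3 NOD T pools came from mice given a subcutaneous, slowly releasing pellet of 10 mg of T, and the 3 NOD placebo pools from mice given a pellet of the vehicle (cholesterol, methylcellulose and lactose) without hormone. By the labels treatment lasted 21 days in both groups and each pool combined the exorbital glands of 2 to 4 mice, and the study's methods give an age of 21 weeks at implantation. All mice of both groups were females of an inbred strain with spontaneous autoimmune diabetes and lymphocyte infiltrates in its tear and salivary glands, and a pool hides the spread between its mice. Each pool was hybridized to a CodeLink (CL) Bioarray and an Affymetrix (Affy) GeneChip, so both platforms measured the same animals. The other 12 arrays of the series held glands of female MRL/lpr mice, and were used here for the shared estimate of the spread and for 1 comparison of the strains. They came from 3 placebo pools and 3 T pools (10 mg), each on both platforms. By the labels these mice were treated for fewer than 21 days, and each pool combined 6 mice. By the study's methods they were younger at implantation than the NOD mice.

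The lacrimal gland makes the watery layer of the tear film. Its acinar cells synthesize proteins such as secretoglobins, odorant-binding proteins, peroxidase and lysozyme, ducts modify the fluid, and contractile myoepithelial cells surround the acini. Androgens act through a nuclear receptor that binds paired short half-sites in DNA, and the lacrimal gland of rodents is known to differ between the sexes in the size of its acini and in many of its products. The glandular kallikreins, a cluster of secreted serine proteases, are textbook androgen-induced genes of the mouse submandibular gland and kidney.

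A CL value is a spot intensity divided by the median of its array, so that 1 is the level of a median spot. An Affy value is a probe set intensity after each array was multiplied to a trimmed mean of 500. Changes are given as log2 of T over placebo with the standard error (SE) of the limma fit, and "called" means that limma's Benjamini-Hochberg adjusted p, taken over all probes of the platform, was below 0.05. Each gene is represented by its brightest probe, and its other probes did not always share the call. Where every pool of a group lay near background the fold is a lower bound and is written as "at least". A T pool and a placebo pool of the same number are not a pair, and p-values measure the spread between pools.

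The tissue label fitted the defining genes. Scgb1b2 and Obp1a, a secretoglobin and an odorant-binding protein of tears, had the 2 highest mean signals over the NOD arrays on both platforms among the 8959 genes tested on CL and the 10406 tested on Affy. Pip, a prolactin-induced secretory protein, ranked 3 on CL and 9 on Affy, and Lpo, the lacrimal peroxidase, ranked 11 and 15. The submandibular and parotid genes Bpifa2, Smr3a, Dcpp1 and Prpmp5 averaged 25.5, 4.84, 18.7 and 35.9 on Affy, all below the floor of 71.2. On CL Bpifa2 averaged 0.779, above the floor of 0.5. These genes belong to a longer list of salivary gland markers, not all of which were dim. The list includes Smr2, given below, and its summed Affy signal was 17145 to 22400 in T pools, against 2609 to 4087 in placebo pools. Pools of a group correlated at 0.954 to 0.978 for T and 0.932 to 0.969 for placebo on CL, and at 0.925 to 0.989 for T and 0.969 to 0.973 for placebo on Affy. The deposited Affy arrays were on unequal scales. Before scaling, the trimmed means of the T arrays were 42.8, 149.5 and 141, against 44.9, 51.4 and 82.0 for the placebo arrays. The highest deposited signals of the 6 arrays were alike, at 10091 to 13999, and the highest scaled signals were 117930, 44753 and 49654 in the T pools, against 119450, 108770 and 66675 in the placebo pools. The scaled signal of the brightest genes was thus bounded lower in T pools 2 and 3 than in T pool 1 or the placebo pools.

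T changed many genes in NOD glands. On CL 769 genes were called higher (8.58% of those tested) and 767 lower (8.56%), with a median log2 change over all genes of -0.09. On Affy 675 were called higher (6.49%) and 421 lower (4.05%), with a median of 0.00. These shares over all genes are the background for the list counts below. The Affy split depended on the scaling, since the signals as deposited gave 1150 genes called higher and 38 lower with a median of 0.68. Both arrays measured 6807 genes, of which 269 were called higher on both (3.95%) and 143 lower on both (2.1%). The shared rises were 44.1% of the CL rises and 47.5% of the Affy rises among these genes, and the shared falls were 25.2% and 34.7%. In all, 17 genes were called in opposite directions. All T pools exceeded all placebo pools for 14.7% of genes on CL and 15.6% on Affy, and the reverse held for 21.8% and 13.4%.

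**Figure D1:**
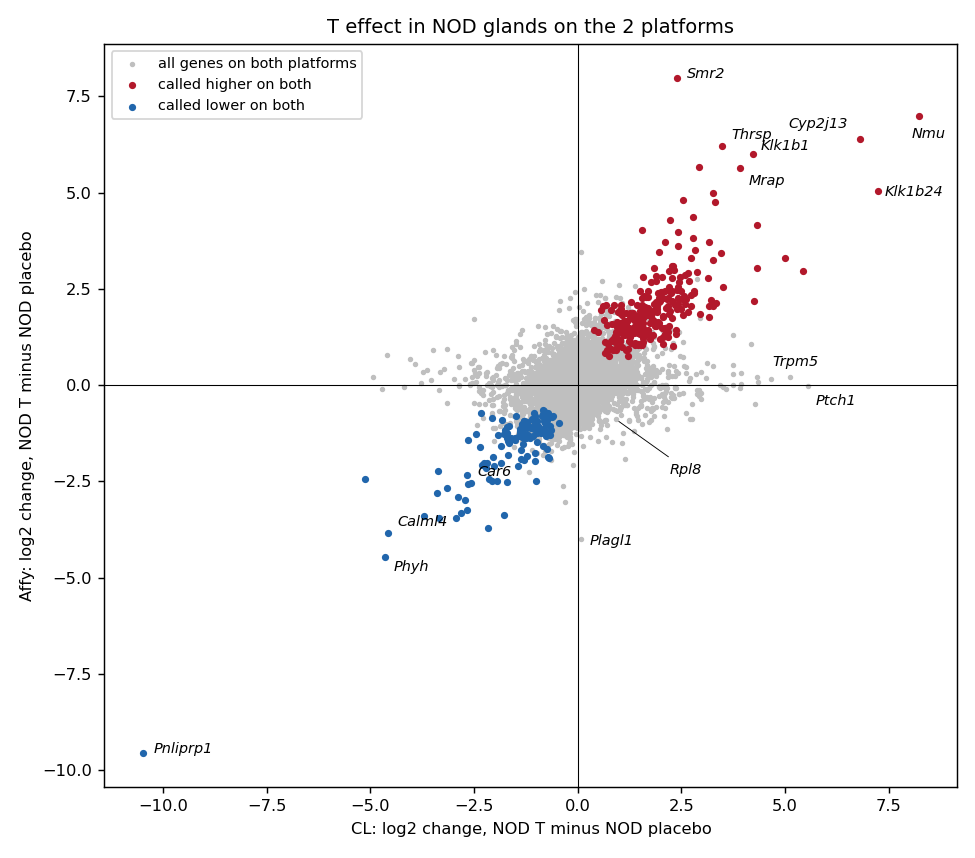
Each point is a gene measured on both platforms, placed by its log2 change (NOD T minus NOD placebo) on CL (x axis) and Affy (y axis); red points were called higher on both platforms and blue points lower on both. Nmu, Cyp2j13 and the kallikreins lie at the upper right, Pnliprp1 lies alone at the lower left with -10.48 on CL and -9.56 on Affy, and a horizontal arm of CL changes, Ptch1 and Trpm5 among them, has Affy values near 0.

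Secretory genes were measured with 8 lists, the first of them the glandular kallikreins. On CL 12 of 13 kallikreins on the array passed the filter on dim probes, 5 were called higher and 0 lower, and their median log2 change was 1.82, or 1.09 with dim genes at their bound. On Affy 11 of 14 passed, 5 were called higher and 0 lower, and the median was 1.97. These counts stayed at 5 to 6 on CL and at 5 on Affy when any 1 NOD pool was left out, and 8.58% of all genes on CL and 6.49% on Affy were called higher. The study itself lists Klk1 on CL and Klk1b26 on both platforms among the largest rises in NOD glands, by an unadjusted t-test. No value of either gene is given here, so no lack of response can be read from that. The list members called here were all of the Klk1b branch, whose members differ by few bases. A probe of one can thus also bind the RNA of another, and the split between neighbours is uncertain. Their close relation also shows in the proximal promoters, of which 4 are given here because they belong to kallikreins that differed in the size of their rise. They run from 250 bases before to 50 after the start of transcription, from RefSeq on GRCm38.p6, plus strand, and capitals mark the half-site AGAACA of the androgen response element and its variant GGAACA, searched on both strands.
Klk1b24, chr7:44187986-44188285: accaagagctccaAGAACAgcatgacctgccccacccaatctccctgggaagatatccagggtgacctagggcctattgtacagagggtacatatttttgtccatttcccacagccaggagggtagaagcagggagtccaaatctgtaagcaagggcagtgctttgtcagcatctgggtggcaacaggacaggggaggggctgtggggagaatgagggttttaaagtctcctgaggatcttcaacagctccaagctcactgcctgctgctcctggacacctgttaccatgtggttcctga
Klk1b21, chr7:44102042-44102341: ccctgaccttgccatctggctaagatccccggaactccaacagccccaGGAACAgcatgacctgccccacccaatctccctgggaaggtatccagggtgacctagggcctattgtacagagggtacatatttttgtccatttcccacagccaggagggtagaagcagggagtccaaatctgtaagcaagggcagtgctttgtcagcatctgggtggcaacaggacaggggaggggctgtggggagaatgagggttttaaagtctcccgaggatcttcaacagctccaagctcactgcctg
Klk1b27, chr7:44052040-44052339: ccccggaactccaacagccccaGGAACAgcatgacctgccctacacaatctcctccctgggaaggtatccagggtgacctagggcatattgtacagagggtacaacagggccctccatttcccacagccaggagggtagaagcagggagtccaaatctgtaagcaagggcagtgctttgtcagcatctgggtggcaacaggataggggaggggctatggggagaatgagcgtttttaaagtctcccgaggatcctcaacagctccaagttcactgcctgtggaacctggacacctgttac
Klk1b1, chr7:43966501-43966800: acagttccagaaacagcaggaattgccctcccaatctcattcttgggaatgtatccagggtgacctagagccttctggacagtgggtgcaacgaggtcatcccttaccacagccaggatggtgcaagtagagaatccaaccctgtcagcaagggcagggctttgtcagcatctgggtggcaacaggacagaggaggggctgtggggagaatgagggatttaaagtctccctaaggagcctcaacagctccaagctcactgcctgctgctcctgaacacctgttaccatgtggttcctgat
In global alignments the Klk1b24 promoter was 78.5% identical to that of Klk1b21, 83.4% to that of Klk1b27 and 82.7% to that of Klk1b1. Overhanging ends counted against identity, and the annotated starts shift the windows against each other, so these values do not rank the promoters by relatedness. Klk1b24 held AGAACA at base 14 counted from the 5′ end, Klk1b21 and Klk1b27 held GGAACA in the same surrounding bases, at bases 49 and 23, and Klk1b1 held neither. Of the 9 tested genes of the Klk1 and Klk1b branch with a listed promoter, 7 held AGAACA or GGAACA, against 31.3% of all 32851 mouse promoters of this length. The only matches of Klk1b8 and Klk1b5, at bases 292 and 294, lay past the start of transcription, as did a match of Klk1b11 at base 295. These genes share much of their sequence, so the 9 promoters are not independent. AGAACA alone was in 19.0% of all promoters, and the full palindrome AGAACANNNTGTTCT in 3 of them and in no kallikrein promoter of this set. These matches describe the letters of these windows only.

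Klk1b24 gave the largest kallikrein rise on CL. Its CL intensities were 46.3, 119 and 141 in the NOD T pools, against 0.583, 0.789 and 0.0413 in the NOD placebo pools, where every spot was near background, so the rise was at least 66.4-fold (adjusted p = 0.0028). On Affy it was 1212, 5864 and 5886 in T pools, against 163, 101 and 62.2 in placebo pools, a log2 change of 5.04 (SE 0.45, adjusted p = 8.5e-07). No placebo pool reached any T pool on either platform, and T pool 1 was the lowest of the T pools. Klk1b1 was 81.2, 160.2 and 154 in T pools, against 7.09, 7.11 and 6.08 in placebo pools on CL, a log2 change of 4.22 (SE 0.26, adjusted p = 9.7e-07). On Affy it rose at least 64.5-fold (adjusted p = 4.3e-11) to 5095, 5044 and 3773 in T pools, against placebo signals below the floor. Klk1b11 had intensities of 45.9, 52.5 and 72.4 in T pools, against 2.65, 3.24 and 2.53 in placebo pools on CL, and the change of 4.32 (SE 0.20, adjusted p = 2.4e-07) was met by 4.17 (SE 0.25, adjusted p = 7.4e-09) on Affy. Klk1b8 changed by 5.01 (SE 0.30, adjusted p = 7.3e-07) on CL and 3.31 (SE 0.42, adjusted p = 5.5e-05) on Affy, again without overlap of the pools. Egfbp2 encodes the kallikrein that binds epidermal growth factor, is outside the list under this symbol and was tested on Affy only, where it rose at least 25.6-fold (adjusted p = 2.0e-07). Klk1b27 and Klk1b21 gave platform-dependent results. Klk1b27 was 2.904, 8.45 and 14.03 in T pools, against near-background 0.562, 0.488 and 0.474 in placebo pools on CL (adjusted p = 0.0035), while on Affy 11.7, 133 and 115 in T pools, against 4.46, 2.92 and 6.09 in placebo pools did not pass the test (adjusted p = 0.37). Klk1b21 passed on Affy with 2.26 (SE 0.39, adjusted p = 0.0011) and did not on CL with 1.03 (SE 0.45, adjusted p = 0.15).

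Genes of other secretory lists rose as well, beside falls in the same lists. Salivary and tear proteins had 4 of 23 called higher and 2 lower on CL, and 4 of 34 higher and 4 lower on Affy. Lipocalins and major urinary proteins had 1 of 7 higher and 1 lower, and 2 of 13 and 0. Seminal vesicle and casein proteins had 2 of 11 higher and 1 lower, and 1 of 10 and 0. Over all genes 8.58% were called higher and 8.56% lower on CL, and 6.49% and 4.05% on Affy. Smr2, a submaxillary gland androgen-regulated protein, was 15404, 20560.0 and 18503 in T pools, against 32.3, 53.5 and 64.6 in placebo pools on Affy, all placebo signals being below the floor, a rise of at least 253-fold (adjusted p = 6.8e-14). On CL its values were 12.3, 29.1 and 38.7 in T pools, against 4.35, 4.86 and 4.43 in placebo pools, a log2 change of 2.40 (SE 0.35, adjusted p = 4.8e-04). The 2 platforms thus shared the direction and the separation of the pools, and differed in size. Lyz1, P lysozyme, was 15039, 24565 and 23234 in T pools, against 1269, 1051 and 1494 in placebo pools on Affy, a change of 4.02 (SE 0.22, adjusted p = 1.8e-09), with 1.54 (SE 0.23, adjusted p = 6.8e-04) on CL. Its probes may bind the RNA of Lyz2, the lysozyme of macrophages, which was also called higher on both platforms. Wfdc12, a whey acidic protein-type protease inhibitor, was 117930.0, 44753 and 49654 in T pools, against 9569, 11757 and 4887 in placebo pools on Affy, and was called higher (adjusted p = 6.0e-05). Each T value was the highest signal of its array, so the size of this change is limited by the range of the arrays, and its fitted log2 value of 2.97 is not exact. On CL 1 placebo value of Wfdc12 was near background beside 2 of 121 and 141, and the change was 5.43 (SE 1.66, adjusted p = 0.044). Lcn2, a siderophore-binding lipocalin tested on Affy only, changed by 2.80 (SE 0.52, adjusted p = 0.0017), and Ptgds, a lipocalin-type prostaglandin D synthase, by 1.62 (SE 0.42, adjusted p = 0.021) on Affy and at least 1.36-fold (adjusted p = 0.014) upward on CL. Svs4, a seminal vesicle secretory protein, rose at least 5.001-fold (adjusted p = 8.5e-05) on CL and at least 3.401-fold (adjusted p = 0.0029) on Affy. Azgp1, zinc-alpha-2-glycoprotein, changed by 0.90 (SE 0.19, adjusted p = 0.0052) on CL and 1.11 (SE 0.25, adjusted p = 0.0083) on Affy. Apof, apolipoprotein F, rose at least 50.7-fold (adjusted p = 7.3e-09) on Affy and at least 7.57-fold (adjusted p = 4.8e-06) on CL, where its second, dimmer probe went the other way with a log2 change of -0.55 that was also called.

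The largest fall of all genes on both platforms was that of Pnliprp1, pancreatic lipase-related protein 1. It was 0.629, 1.02 and 0.271 in T pools, against 1574, 1676 and 354 in placebo pools on CL, and 11.7, 117 and 6.03 in T pools, against 83157, 72424 and 42014 in placebo pools on Affy. The log2 changes were -10.48 (SE 1.33, adjusted p = 1.9e-04) and -9.56 (SE 0.85, adjusted p = 8.6e-07). T pool 3 was below the floor on CL and T pools 1 and 3 on Affy, while the placebo pools were among the brightest signals of their arrays. Dmbt1, a mucin-like scavenger receptor of epithelial secretions, was 10.4, 6.83 and 8.25 in T pools, against 67.9, 70.3 and 55.1 in placebo pools on CL, a change of -2.94 (SE 0.30, adjusted p = 3.6e-05) that was -3.45 (SE 0.23, adjusted p = 2.2e-08) on Affy. Car6, the secreted carbonic anhydrase, was 102, 82.8 and 111 in T pools, against 587, 711 and 549 in placebo pools on CL, a change of -2.64 (SE 0.20, adjusted p = 3.7e-06). On Affy it changed by -2.56 (SE 0.26, adjusted p = 4.9e-06). None of these 3 genes had overlapping pools on either platform. Mucl1, a small mucin-like protein, and Scgb2b27, a secretoglobin, were tested on Affy only and changed by -3.44 (SE 0.47, adjusted p = 1.1e-04) and -2.57 (SE 0.65, adjusted p = 0.017). The call of Scgb2b27 was lost without T pool 1, placebo pool 2 or placebo pool 3. The most abundant tear proteins did not pass the test on CL. There the values of Scgb1b2 were 1853, 1666 and 2174 in T pools, against 2620.3, 2653 and 2532 in placebo pools (adjusted p = 0.17), and those of Obp1a 1239.6, 841 and 1782 in T pools, against 1838, 1846 and 2200.4 in placebo pools (adjusted p = 0.15). Every T pool was nevertheless below every placebo pool for both genes, so the missing call does not show that they were unchanged. Between 2 and 7 spots per CL array were marked saturated, and whether the range of the arrays limited these bright signals was not tested. The log2 value of Lpo was 0.42 (SE 0.17, adjusted p = 0.12) on CL. Of the genes of exocytosis, such as SNARE proteins, 1 of 22 was called higher and 0 lower on CL, and 1 of 27 higher and 0 lower on Affy. The shares over all genes were 8.58% higher and 8.56% lower on CL, and 6.49% and 4.05% on Affy. In a list of this size such counts do not set the genes of exocytosis apart from all genes. Because the arrays measure tissue RNA, fewer cells of a type and less RNA per cell cannot be told apart for any fall given here.

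**Figure D2:**
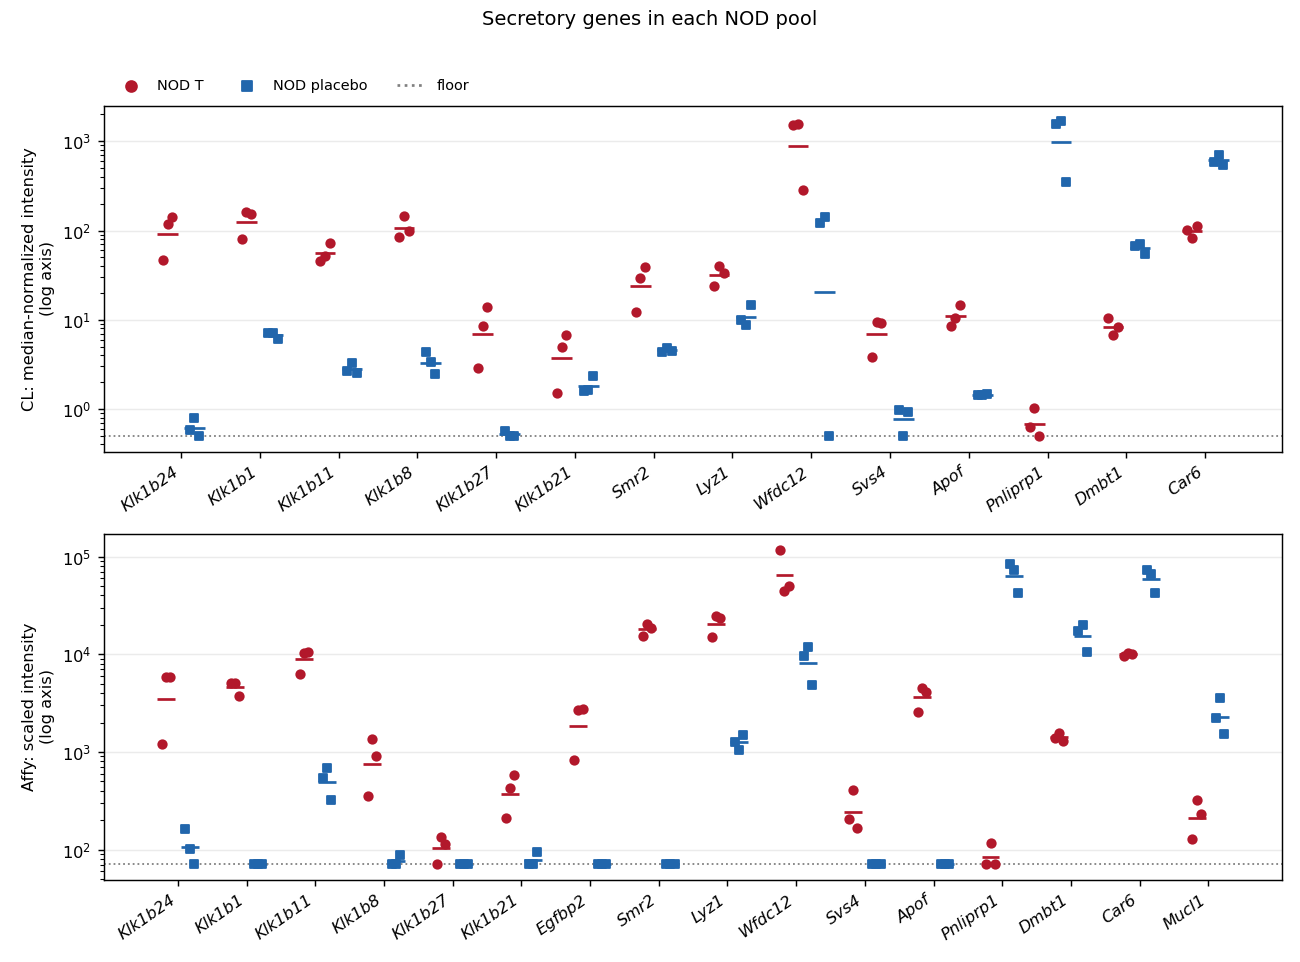
Median-normalized intensity on CL (upper panel) and scaled intensity on Affy (lower panel) of secretory genes in each NOD pool, on log axes; red circles are T pools, blue squares placebo pools, bars the mean of the log2 values, and values below the dotted floor are drawn at it. Red circles lie above blue squares for the Klk1b genes other than Klk1b21 on CL and T pool 1 of Klk1b27 on Affy, which lies at the floor, and below them for Pnliprp1, Dmbt1, Car6 and Mucl1.

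Enzymes that metabolize foreign and endogenous lipids contained both rises and falls. Cyp2j13, an arachidonic acid-metabolizing cytochrome P450 family member, was 86.3, 65.3 and 33.4 in T pools, against near-background 0.533, 0.218 and 0.121 in placebo pools on CL, a rise of at least 41.4-fold (adjusted p = 1.0e-07). On Affy it was 3646, 6754 and 8651 in T pools, against 10.03, 16.5 and 4.88 in placebo pools, at least 83.9-fold (adjusted p = 9.4e-11). The fatty acid hydroxylase genes Cyp4a12a and Cyp4a12b, near-identical neighbours that probes may not tell apart and that are known as androgen-induced in mouse kidney, changed by 5.01 (SE 0.29, adjusted p = 3.4e-09) on Affy and 4.74 (SE 0.25, adjusted p = 4.8e-07) on CL. Cyp2f2 moved the other way, by -2.49 (SE 0.21, adjusted p = 6.0e-07) on Affy and -1.95 (SE 0.16, adjusted p = 1.5e-05) on CL, where the fit rests on 2 placebo values because 1 spot carried a quality mark. Over the family 5 of 35 P450 genes were called higher and 6 lower on CL, and 2 of 35 higher and 2 lower on Affy. Over all genes the shares were 8.58% higher and 8.56% lower on CL, and 6.49% and 4.05% on Affy. Among dehydrogenases, transferases and other conjugating enzymes, 7 of 71 were called higher and 16 lower on CL, and 8 of 72 higher and 14 lower on Affy, where the falls numbered 8 without placebo pool 2 and 9 without T pool 2, T pool 3 or placebo pool 3. Both arrays measured 57 of them, and 5 (8.77%) rose and 10 (17.5%) fell on both. Among all genes measured by both arrays these shares were 3.85% and 1.95% by the brightest probe. Adh1, the class I alcohol dehydrogenase that also oxidizes retinol, was 19.2, 21.9 and 20.3 in T pools, against 146, 159.5 and 94.6 in placebo pools on CL, and its changes were -2.67 (SE 0.22, adjusted p = 7.6e-06) on CL and -3.24 (SE 0.18, adjusted p = 3.4e-09) on Affy. Gstm1, a glutathione transferase, changed by -2.07 (SE 0.19, adjusted p = 1.3e-05) and -2.48 (SE 0.22, adjusted p = 8.2e-07). In the opposite direction Aldh1l1, a folate enzyme that oxidizes formyltetrahydrofolate, was 23.7, 31.3 and 35.7 in T pools, against 7.53, 6.15 and 7.202 in placebo pools on CL, and changed by 2.10 (SE 0.20, adjusted p = 1.9e-05) on CL and 3.72 (SE 0.33, adjusted p = 8.1e-07) on Affy. Fmo5, a flavin monooxygenase, changed by 4.37 (SE 0.35, adjusted p = 2.6e-07) on Affy, and Abcc2, an export pump for conjugates, by 3.44 (SE 0.37, adjusted p = 7.4e-06) on Affy and at least 3.94-fold (adjusted p = 7.3e-07) upward on CL. The CL call of Fmo5 was lost when any 1 NOD pool was left out.

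Lipid enzymes were counted by step, beside shares over all genes of 8.58% higher and 8.56% lower on CL and 6.49% and 4.05% on Affy. Of the genes of fatty acid and triglyceride synthesis 2 of 22 were called higher and 1 lower on CL, and 4 of 26 higher and 1 lower on Affy. Thrsp, the lipogenic Spot14 protein, was 5729.8, 4726 and 5835 in T pools, against 75.8, 35.01 and 59.1 in placebo pools on Affy, a change of 6.22 (SE 0.25, adjusted p = 4.3e-11), and rose at least 4.05-fold (adjusted p = 0.004) on CL. Fasn, fatty acid synthase, was 8.95, 15.1 and 17.9 in T pools, against 4.94, 4.71 and 4.13 in placebo pools on CL, with changes of 1.55 (SE 0.27, adjusted p = 0.0018) on CL and 2.26 (SE 0.25, adjusted p = 1.3e-05) on Affy. For both genes every T pool was above every placebo pool on each platform. Of the genes of fatty acid oxidation 0 of 34 were called higher and 5 lower on CL, and 1 of 37 higher and 9 lower on Affy, where the median log2 change was -0.33. Phyh, the phytanoyl-CoA hydroxylase of fatty acid alpha-oxidation, was 39.1, 41.7 and 25.8 in T pools, against 970.4, 842 and 826 in placebo pools on CL, a change of -4.66 (SE 0.34, adjusted p = 2.9e-06) that was -4.45 (SE 0.36, adjusted p = 3.3e-07) on Affy. Acot1, a cytosolic acyl-CoA thioesterase, changed by -2.66 (SE 0.56, adjusted p = 0.0057) and -2.33 (SE 0.50, adjusted p = 0.0057), and Acadl, the long-chain acyl-CoA dehydrogenase, by -0.98 (SE 0.18, adjusted p = 0.0025) and -0.92 (SE 0.18, adjusted p = 0.0029). Acsm1, a medium-chain acyl-CoA synthetase that was in no list, was 1.65, 1.58 and 1.92 in T pools, against 15.98, 13.3 and 8.35 in placebo pools on CL, and changed by -2.82 (SE 0.24, adjusted p = 9.5e-06) and -3.33 (SE 0.21, adjusted p = 9.5e-09). In sterol synthesis Pmvk, phosphomevalonate kinase, and Fdft1, squalene synthase, went in opposite directions. Pmvk changed by 2.06 (SE 0.27, adjusted p = 2.1e-04) on CL and 2.26 (SE 0.46, adjusted p = 0.0038) on Affy. Fdft1 was 93.5, 505 and 393 in T pools, against 1598, 1474 and 1505 in placebo pools on Affy, a change of -2.53 (SE 0.43, adjusted p = 8.2e-04), and fell at least 1.64-fold (adjusted p = 4.3e-04) on CL. Of the 14 sterol genes measured by both arrays, only Pmvk and Fdft1 were called on each.

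Of the enzymes of polyamine and monoamine metabolism 3 of 23 were called higher and 2 lower on CL, and 2 of 20 higher and 1 lower on Affy. The shares over all genes were 8.58% higher and 8.56% lower on CL, and 6.49% and 4.05% on Affy. Ddc, aromatic amino acid decarboxylase, which makes dopamine and serotonin, was 1389.5, 3238 and 2546 in T pools, against 67.97, 32.1 and 22.5 in placebo pools on Affy, at least 31.7-fold (adjusted p = 2.8e-09), and rose at least 3.48-fold (adjusted p = 9.9e-05) on CL. Inmt, indolethylamine N-methyltransferase, fell by 10.1-fold on CL, to 1.71, 1.36 and 1.43 in T pools, against 10.99, 9.96 and 31.4 in placebo pools, and its log2 change on Affy was -3.46 (SE 0.38, adjusted p = 1.0e-05). Odc1, ornithine decarboxylase, the rate-limiting enzyme of polyamine synthesis and a known androgen target in mouse kidney, passed on Affy with 1.16 (SE 0.19, adjusted p = 5.3e-04) and not on CL with 0.39 (SE 0.36, adjusted p = 0.52). Only 1 of its 3 Affy probe sets was called, and the lowest change was -0.34. Fbp1, fructose bisphosphatase, changed by -1.30 (SE 0.22, adjusted p = 0.0014) on CL and -1.11 (SE 0.33, adjusted p = 0.041) on Affy. Of 40 genes of glycolysis and the citric acid cycle 2 were called higher and 2 lower on CL, and of 42 on Affy 1 higher and 2 lower. The respiratory chain had 3 of 67 subunits called higher and 3 lower on CL, and 1 of 78 higher and 6 lower on Affy. The last count was 2 without placebo pool 1 or 2, 9 without T pool 1, 13 without T pool 2, 12 without T pool 3 and 25 without T pools 2 and 3.

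**Figure D3:**
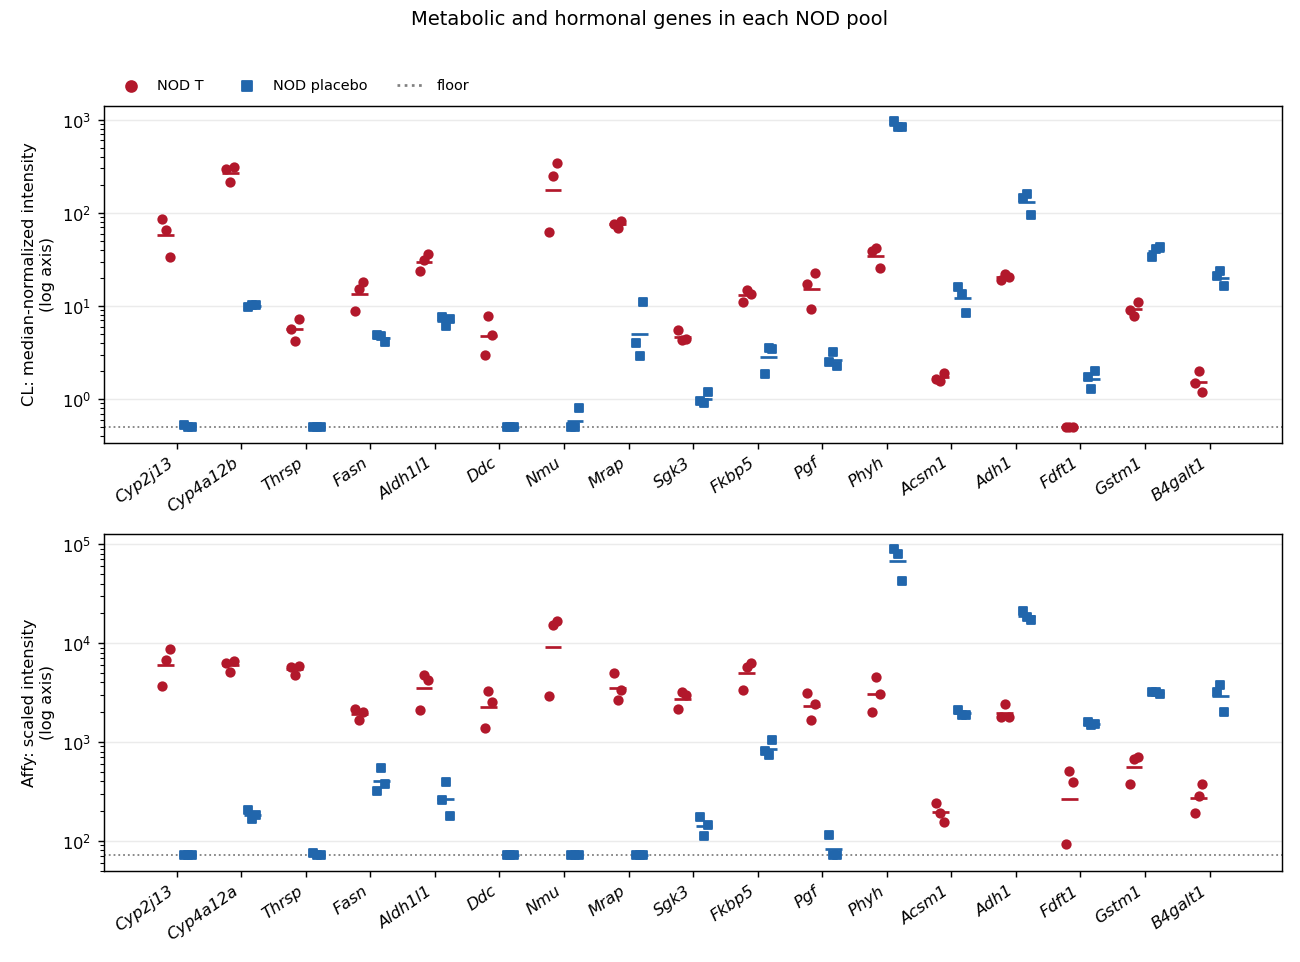
Median-normalized intensity on CL (upper panel) and scaled intensity on Affy (lower panel) of metabolic and hormonal genes in each NOD pool, on log axes; red circles are T pools, blue squares placebo pools, bars the mean of the log2 values, and values below the dotted floor are drawn at it. The pools of the 2 groups do not overlap for any gene drawn.

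Genes of protein production were counted in separate lists. Beside them stand shares over all genes of 8.58% higher and 8.56% lower on CL, and 6.49% and 4.05% on Affy. The aminoacyl tRNA synthetases, which charge tRNAs for translation, had 0 of 14 called higher and 2 lower on CL, and 0 of 20 higher and 10 lower on Affy, with medians of -0.35 and -0.79. After quantile normalization the Affy count was again 10, and with the signals as deposited it was 0, with a median that lay -0.72 relative to that of all genes. Leaving out 1 NOD pool gave 7 to 12 falls on Affy, and leaving out T pools 2 and 3 gave 15. Aars, the alanyl enzyme, was 20.5, 25.5 and 10.6 in T pools, against 62.9, 58.5 and 52.1 in placebo pools on CL, a change of -1.70 (SE 0.27, adjusted p = 0.001), with -1.09 (SE 0.19, adjusted p = 8.7e-04) on Affy. Cytosolic ribosomal proteins had 1 of 58 called higher and 9 lower on CL, and 1 of 46 higher and 8 lower on Affy. This count was sensitive to the normalization, as quantile normalization left 3 lower on CL and 2 on Affy. It was also sensitive to single pools, with 4 falls on CL without T pool 1 and 6 without T pool 2, and on Affy with 2 without placebo pool 1 or 2, 5 without T pool 3 or placebo pool 3, 21 without T pool 1 and 15 without T pools 2 and 3. Rpl4, a large-subunit protein, changed by -0.67 (SE 0.18, adjusted p = 0.027) on CL and -1.31 (SE 0.27, adjusted p = 0.004) on Affy. Rpl8 was called in opposite directions, with 0.92 (SE 0.22, adjusted p = 0.012) on CL and -0.89 (SE 0.20, adjusted p = 0.007) on Affy. Of the endoplasmic reticulum chaperones and the unfolded protein response 0 of 29 were called higher and 4 lower on CL, and 1 of 38 higher and 8 lower on Affy, or 5 lower without T pool 2 or placebo pool 2. Hsp90b1, the chaperone GRP94, changed by -0.79 (SE 0.16, adjusted p = 0.0051) and -0.86 (SE 0.26, adjusted p = 0.047), while Hspa5, the chaperone BiP, was called on Affy with -1.56 (SE 0.31, adjusted p = 0.0029) and not on CL with -0.82 (SE 0.32, adjusted p = 0.12). Glycosyltransferases had 4 of 50 called higher and 6 lower on CL, and 9 of 60 higher (15%, against 6.49% of all genes) and 4 lower on Affy. B4galt1, a Golgi galactosyltransferase, was 1.51, 2.01 and 1.18 in T pools, against 20.9, 23.7 and 16.4 in placebo pools on CL, a change of -3.72 (SE 0.26, adjusted p = 2.2e-06), and -3.41 (SE 0.29, adjusted p = 4.7e-07) on Affy. B4galt6, its relative that makes lactosylceramide, was 3536, 2220.5 and 3463 in T pools, against 156, 165 and 564 in placebo pools on Affy, a change of 3.62 (SE 0.40, adjusted p = 1.0e-05), and all 4 of its Affy probe sets were called higher.

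**Figure D4:**
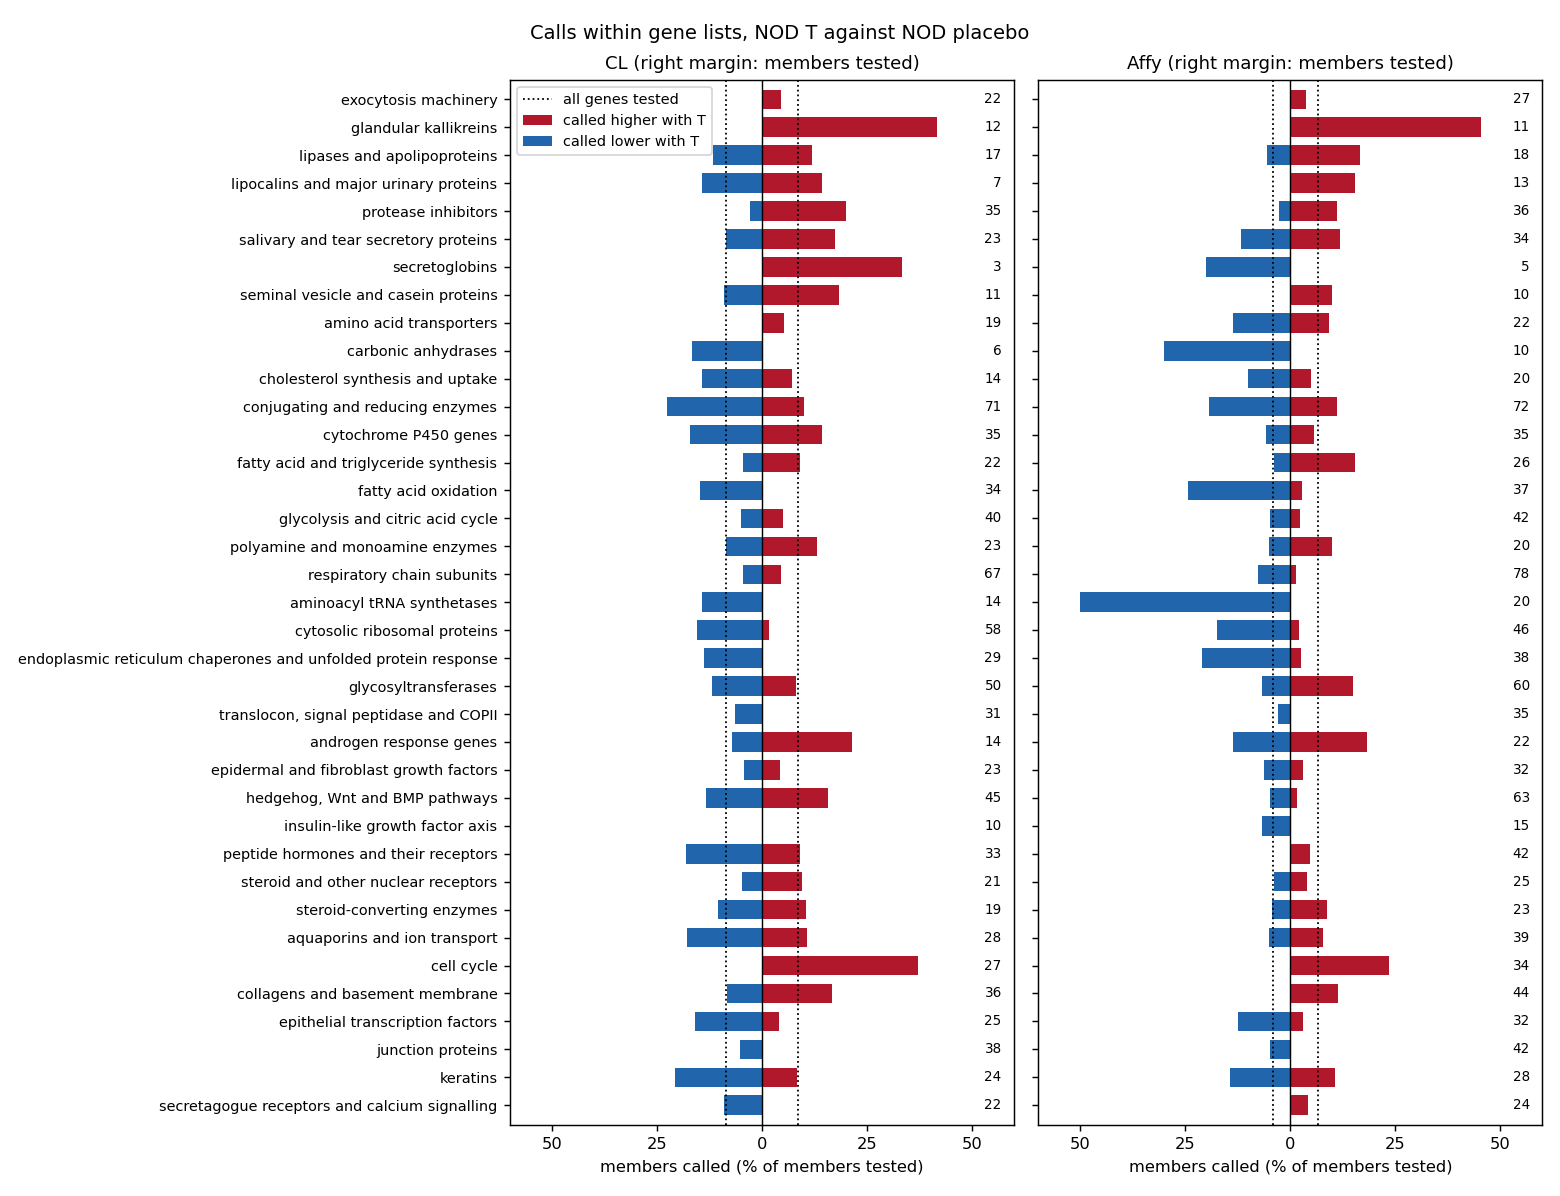
Share of the tested members of each gene list, other than the marker and interferon lists, that were called higher (red, to the right) or lower (blue, to the left) in NOD T pools, on CL (left panel) and Affy (right panel), in percent; dotted lines mark the shares over all genes tested and the right margin gives the members tested. Among the lists drawn that had at least 10 members tested, kallikreins (5 of 12 and 5 of 11 higher) and cell cycle genes (10 of 27 and 8 of 34 higher) reach furthest to the right, and aminoacyl tRNA synthetases on Affy (10 of 20 lower) furthest to the left.

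Among hormonal genes the largest rise was that of Nmu, neuromedin U, a neuropeptide of brain and gut. Its CL intensities were 63.03, 247 and 343 in T pools, against 0.296, 0.429 and 0.803 in placebo pools, a rise of at least 126-fold (adjusted p = 5.6e-06). On Affy it was 2900.5, 15336 and 16620.0 in T pools, against 8.91, 4.86 and 3.66 in placebo pools, at least 127-fold (adjusted p = 1.1e-08). T pool 1 was the lowest of the T pools on both platforms and still far above every placebo pool. Mrap, which carries the receptor for adrenocorticotropic hormone to the cell surface, was 75.2, 68.99 and 82.7 in T pools, against 3.97, 2.91 and 11.2 in placebo pools on CL, a change of 3.90 (SE 0.40, adjusted p = 3.8e-05), and at least 49.5-fold (adjusted p = 9.4e-11) higher on Affy. Nmu and Mrap were the only genes of the 20 peptide hormone and receptor genes tested on both platforms that were called on both. On CL 3 of 33 of that list were called higher and 6 lower, and on Affy 2 of 42 higher and 0 lower. For all genes the shares were 8.58% higher and 8.56% lower on CL, and 6.49% and 4.05% on Affy. Of genes known as androgen- or glucocorticoid-responsive in other tissues, 3 of 14 were called higher and 1 lower on CL, and 4 of 22 higher and 3 lower on Affy, and the 3 called higher on CL were among the 4 on Affy. Fkbp5, an immunophilin that binds steroid receptor complexes, was 10.9, 14.8 and 13.6 in T pools, against 1.88, 3.54 and 3.49 in placebo pools on CL, with changes of 2.19 (SE 0.42, adjusted p = 0.0035) on CL and 2.54 (SE 0.27, adjusted p = 6.5e-06) on Affy. Tsc22d3, also called GILZ, changed by 1.38 (SE 0.34, adjusted p = 0.014) and 1.04 (SE 0.22, adjusted p = 0.0046), and Azgp1 is given above. Only 1 of the 3 Affy probe sets of Tsc22d3 was called, and their changes ran from -0.74 to 1.13. Sgk3, a kinase of the glucocorticoid-induced kinase family, was 2133, 3178 and 2986 in T pools, against 173, 111 and 144 in placebo pools on Affy, a change of 4.28 (SE 0.24, adjusted p = 3.1e-09) shared in direction by its 3 probe sets. On CL it rose at least 3.400-fold (adjusted p = 6.4e-04).

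Of the enzymes that convert steroids 2 of 19 (10.5%) were called higher and 2 lower on CL, and 2 of 23 (8.70%) higher and 1 lower on Affy. Among all genes 8.58% were called higher and 8.56% lower on CL, and 6.49% and 4.05% on Affy. Hsd17b11, a lipid droplet enzyme of the 17-beta-hydroxysteroid dehydrogenase family, was 9056, 6805 and 7418 in T pools, against 1297, 773 and 1667 in placebo pools on Affy, a change of 2.70 (SE 0.24, adjusted p = 9.8e-07). Akr1c12 changed by 2.26 (SE 0.33, adjusted p = 2.0e-04) on Affy, while Akr1c18, a 20-alpha-hydroxysteroid dehydrogenase that inactivates progesterone, changed by -1.38 (SE 0.19, adjusted p = 3.2e-04) on CL and -1.19 (SE 0.21, adjusted p = 0.001) on Affy. Nuclear receptors had 2 of 21 called higher and 1 lower on CL, and 1 of 25 higher and 1 lower on Affy, and no member was called on both. Growth factors rose and fell. Pgf, placental growth factor of the VEGF family, was 17.3, 9.24 and 22.4 in T pools, against 2.53, 3.24 and 2.25 in placebo pools on CL, a change of 2.54 (SE 0.33, adjusted p = 2.1e-04), with 4.81 (SE 0.43, adjusted p = 9.8e-07) on Affy. Nrg4, an ErbB4 ligand, was 36.9, 24.05 and 34.4 in T pools, against 10.2, 10.2 and 12.1 in placebo pools on CL, with changes of 1.53 (SE 0.21, adjusted p = 3.4e-04) and 1.03 (SE 0.26, adjusted p = 0.017). Egf, epidermal growth factor, fell on Affy with -1.12 (SE 0.23, adjusted p = 0.004) and was not called on CL with -0.77 (SE 0.24, adjusted p = 0.051), and Erbb2 and Igfbp5, tested on Affy only, changed by -1.38 (SE 0.35, adjusted p = 0.018) and -1.67 (SE 0.28, adjusted p = 8.5e-04). Id2, a repressor of basic helix-loop-helix factors, changed by 2.79 (SE 0.69, adjusted p = 0.015) and 2.45 (SE 0.35, adjusted p = 1.5e-04). Only 1 of its 3 Affy probe sets was called, and the lowest change was -0.06. Khdrbs3, an RNA-binding splicing regulator, was 1.63, 2.08 and 2.69 in T pools, against 13.8, 17.4 and 15.6 in placebo pools on CL, a change of -2.89 (SE 0.23, adjusted p = 5.4e-06), and fell at least 7.54-fold (adjusted p = 6.4e-06) on Affy.

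Of 24 keratins 2 were called higher and 5 lower on CL (20.8%, against 8.56% of all genes), and of 28 on Affy 3 were called higher and 4 lower (14.3%, against 4.05% of all genes), with 0 lower without placebo pool 1 or 2. Krt79, a keratin of hair follicle and gland ducts in mouse skin, was 8.47, 4.77 and 7.696 in T pools, against 1.28, 1.61 and 1.54 in placebo pools on CL, at least 4.57-fold (adjusted p = 7.3e-05) higher, and changed by 1.84 (SE 0.35, adjusted p = 0.0021) on Affy. Krt5, the keratin of basal and myoepithelial cells, was 5.15, 5.86 and 6.51 in T pools, against 11.5, 12.9 and 14.9 in placebo pools on CL, with changes of -1.16 (SE 0.18, adjusted p = 8.2e-04) and -1.37 (SE 0.32, adjusted p = 0.011). Krt23 changed by -1.39 (SE 0.30, adjusted p = 0.0073) and -1.15 (SE 0.27, adjusted p = 0.01). Of junction proteins 0 of 38 were called higher and 2 lower on CL, and 0 of 42 higher and 2 lower on Affy, Cldn8 being called on both. Cldn8, a claudin that limits paracellular cation passage, was 317, 291 and 238 in T pools, against 1249, 1132 and 1212 in placebo pools on Affy, a change of -2.10 (SE 0.21, adjusted p = 2.9e-06), and fell at least 3.41-fold (adjusted p = 0.0016) on CL. Aquaporins and ion transport genes had 3 of 28 called higher and 5 lower on CL, and 3 of 39 higher and 2 lower on Affy. Slc12a2, the basolateral sodium-potassium-chloride cotransporter that drives fluid secretion, was 1.86, 1.59 and 1.42 in T pools, against 3.801, 4.06 and 7.701 in placebo pools on CL, with changes of -1.60 (SE 0.30, adjusted p = 0.0029) and -1.36 (SE 0.19, adjusted p = 1.4e-04). Aqp5, the apical water channel of acinar cells, was called on Affy with -0.92 (SE 0.24, adjusted p = 0.021), a call lost without placebo pool 1 or 2, and not on CL with -0.49 (SE 0.20, adjusted p = 0.13). Fxyd3, a modulator of the sodium pump, was 41.9, 43.8 and 67.3 in T pools, against 15.1, 16.00 and 10.4 in placebo pools on CL, with changes of 1.88 (SE 0.27, adjusted p = 5.0e-04) and 1.97 (SE 0.18, adjusted p = 1.5e-06). Receptors and signalling genes of secretagogues had 0 of 22 called higher and 2 lower on CL, and 1 of 24 higher and 0 lower on Affy. Calml4, a calmodulin-like protein, was 1.04, 1.29 and 0.473 in T pools, against 20.00, 23.3 and 19.3 in placebo pools on CL, at least 17.97-fold (adjusted p = 8.9e-06) lower, and changed by -3.84 (SE 0.35, adjusted p = 1.2e-06) on Affy. Plagl1, an imprinted zinc finger gene, was 22.2, 29.8 and 51.8 in T pools, against 1166, 1279 and 999 in placebo pools on Affy, at least 16.04-fold (adjusted p = 2.1e-07) lower, while on CL its change was 0.08 (SE 0.40, adjusted p = 0.93).

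Markers of the gland's own cell types moved in part. Their counts stand beside shares over all genes of 8.58% higher and 8.56% lower on CL, and 6.49% and 4.05% on Affy. The acinar list had 0 of 8 markers called higher and 2 lower on CL, and 0 of 13 higher and 4 lower on Affy. Bhlha15 (Mist1), the transcription factor of mature secretory cells, changed by -1.11 (SE 0.25, adjusted p = 0.007) on Affy, where its other probe set changed by -0.13 and was not called. The myoepithelial list had 0 of 8 called higher and 4 lower on CL, and 0 of 10 higher and 4 lower on Affy, with medians of -0.90 and -0.68. Leaving out 1 NOD pool gave 4 on CL and 3 to 4 on Affy. With the signals as deposited the Affy count was 0, and its median lay -0.76 relative to that of all genes. Acta2, smooth muscle actin, was 1541, 1945 and 1838 in T pools, against 4197, 4304 and 4392 in placebo pools on Affy, with changes of -1.19 (SE 0.23, adjusted p = 0.0031) on CL and -1.28 (SE 0.17, adjusted p = 8.2e-05) on Affy, and Myh11, smooth muscle myosin, changed by -1.29 (SE 0.27, adjusted p = 0.0053) and -1.94 (SE 0.28, adjusted p = 1.8e-04). Both genes are also expressed by vascular smooth muscle. Duct cell markers had 0 called higher and 1 of 8 lower on CL, and 1 of 9 higher and 3 lower on Affy. Endothelial markers had 0 of 6 called on CL and 1 of 12 called higher on Affy.

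Part of the cell cycle list was called higher, beside 8.58% of all genes on CL and 6.49% on Affy. On CL 10 of 27 were called higher and 0 lower, with a median log2 change of 0.91, or 0.59 with dim genes at their bound, and on Affy 8 of 34 were called higher and 0 lower, with a median of 0.90. Mki67, the proliferation antigen, was 789, 1323 and 1097 in T pools, against 184, 206 and 124 in placebo pools on Affy, a change of 2.64 (SE 0.31, adjusted p = 2.2e-05). Top2a, topoisomerase II alpha, was 186, 369.5 and 347 in T pools, against 155, 132 and 52.4 in placebo pools on Affy, with a change of 1.34 (SE 0.39, adjusted p = 0.037) on Affy and a rise of at least 1.38-fold (adjusted p = 0.027) on CL, where the pools overlapped. Birc5, survivin, changed by 1.24 (SE 0.38, adjusted p = 0.047) on Affy and rose at least 2.21-fold (adjusted p = 0.0029) on CL. The median change of the list in the T pools was 0.36, 1.24 and 1.04 on Affy and 0.46, 1.27 and 1.20 on CL, so T pool 1 was the lowest on both. Leaving out T pool 1 gave 17 members called on CL and 16 on Affy, and leaving out T pool 2 or T pool 3 gave 8 and 7 on CL and 3 and 3 on Affy. On Affy the count was 4 without placebo pool 1, 5 without placebo pool 2 or 3 and 1 without T pools 2 and 3, and quantile normalization gave 11 on CL and 3 on Affy. Part of the leukocyte markers and most interferon-induced genes were also called higher. T cell markers had 7 of 10 called higher on CL and 4 of 12 on Affy, B and plasma cell markers 3 of 13 and 7 of 16, macrophage and dendritic cell markers 7 of 16 and 10 of 19, and interferon-induced genes 18 of 23 and 23 of 26, with 0 lower in each. The T cell count on Affy was 2 without T pool 2, placebo pool 1 or placebo pool 3, and the B and plasma cell count 4 without T pool 2 or placebo pool 2. The summed level of the T cell markers on Affy was 2308 to 3613 in T pools, against 669.6 to 849 in placebo pools. For B and plasma cell markers the sums were 28062 to 51842 in T pools, against 27603 to 42952 in placebo pools, and for macrophage and dendritic cell markers 18927 to 29551 in T pools, against 7375 to 9346 in placebo pools. Neutrophil and mast cell markers had 0 of 13 and 0 of 14 called. The part of these cells in the cell cycle counts was not tested. Collagens and other matrix genes had 6 of 36 called higher and 3 lower on CL, and 5 of 44 higher and 0 lower on Affy, among them Col3a1, a fibrillar collagen, with 1.55 (SE 0.30, adjusted p = 0.0032) on CL and 1.05 (SE 0.27, adjusted p = 0.02) on Affy. The Affy count of rises was 0 without T pool 3 or without placebo pool 3, 1 without T pool 2 and 3 without placebo pool 1.

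Some of the largest CL changes had no counterpart on Affy. Of the genes measured by both arrays 177 were called at least 4-fold higher on CL, of which 98 (55.4%) were called higher on Affy and 55 had an Affy change under 0.5 on the log2 scale. Of 100 called at least 4-fold lower on CL, 31 (31.0%) were called lower on Affy and 49 had an Affy change under 0.5. In the other direction, 105 of 128 (82.0%) of the 4-fold Affy rises and 31 of 36 (86.1%) of the 4-fold Affy falls were called the same way on CL. Ptch1, the hedgehog receptor, was 102, 76.6 and 148 in T pools, against 2.03, 2.25 and 2.46 in placebo pools on CL, a change of 5.55 (SE 0.33, adjusted p = 7.3e-07), while on Affy it was 331, 298 and 417 in T pools, against 546, 245 and 314 in placebo pools, a change of -0.01 (SE 0.35). Trpm5, a taste cell ion channel, was 67.5, 56.6 and 91.3 in T pools, against 1.65, 2.01 and 2.49 in placebo pools on CL, a change of 5.12 (SE 0.28, adjusted p = 5.4e-07), and 0.22 (SE 0.41, adjusted p = 0.86) on Affy. Lhx1, a LIM homeobox factor tested on CL only, rose at least 17.95-fold (adjusted p = 7.1e-07) there. The probe sequences were not used here, and which platform gives the level of these transcripts was not tested.

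The NOD response was set against that of MRL/lpr mice, a second autoimmune strain, by testing the difference of the 2 T effects in the same fit. By the labels the MRL/lpr mice were treated for a shorter time, while the study's methods give a single range for both strains. By the methods they were younger at implantation, and their pools held more animals, so strain, age, length of treatment and pool size cannot be told apart. On CL 762 of 8959 genes (8.51%) had a called difference, 4.53% of genes being higher and 3.97% lower in NOD relative to MRL/lpr mice, and on Affy 477 of 10406 (4.58%), with 3.61% higher and 0.971% lower. Of list members other than markers, 83 of 987 on CL and 51 of 1151 on Affy had one. Among the list members called in NOD, 151 of 195 on CL and 144 of 180 on Affy had the same sign in MRL/lpr, and 52 and 32 had a called difference. The same counts were not made for all genes called in NOD, so they do not set the list members apart. The NOD arrays that chose these members also enter the difference, so their shares cannot be compared with those over all genes. For Nmu, Cyp2j13, Klk1b1, Klk1b11, Klk1b8, Mrap, Thrsp and Fkbp5 no difference was called on either platform, with estimates between -1.55 and 0.89. Where a group was near background, a fitted difference depends on the floor and is no exact size, as for the NOD T pools of Calml4 on CL and the NOD placebo pools of Apof and Svs4 on both platforms and of Smr2 and Klk1b27 on Affy. Calml4, which was in no list, fell in NOD, with -3.84 in NOD and -0.15 in MRL/lpr mice on Affy (difference -3.69), and a difference of -4.17 was called on CL (adjusted p = 8.7e-04). Car6 and Dmbt1 fell in NOD beyond their change in MRL/lpr, by differences of -2.10 and -1.83 on CL and -2.12 and -2.49 on Affy, all called. Fbp1 was -1.30 in NOD and 0.96 in MRL/lpr mice on CL, and -1.11 and 1.15 on Affy, with called differences on both. Gstm1 fell further in NOD, by -1.41 on CL and -1.51 on Affy. Apof and Smr2 rose further in NOD on both platforms, with differences of 1.21 and 2.28 on CL and 3.21 and 1.54 on Affy. Svs4 rose less in NOD, with a called difference on both platforms. Its mean was 7.48 in NOD T pools and 63.1 in MRL/lpr T pools on CL, against 0.754 in NOD and 0.802 in MRL/lpr placebo pools. The largest difference on Affy was that of Mup5, one of the near-identical major urinary proteins, whose log2 value was -0.87 in NOD and 8.28 in MRL/lpr mice (difference -9.15, SE 1.07, adjusted p = 7.1e-05). Its NOD signals were 2431, 582 and 3255 in T pools, against 1442, 1567 and 12571 in placebo pools, so they overlapped and were well above the floor in both groups. Klk1b27 differed on Affy by -7.10 (adjusted p = 6.3e-08), being 0.53 in NOD and 7.63 in MRL/lpr mice, while on CL the difference of -2.54 was not called (adjusted p = 0.18).

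**Figure D5:**
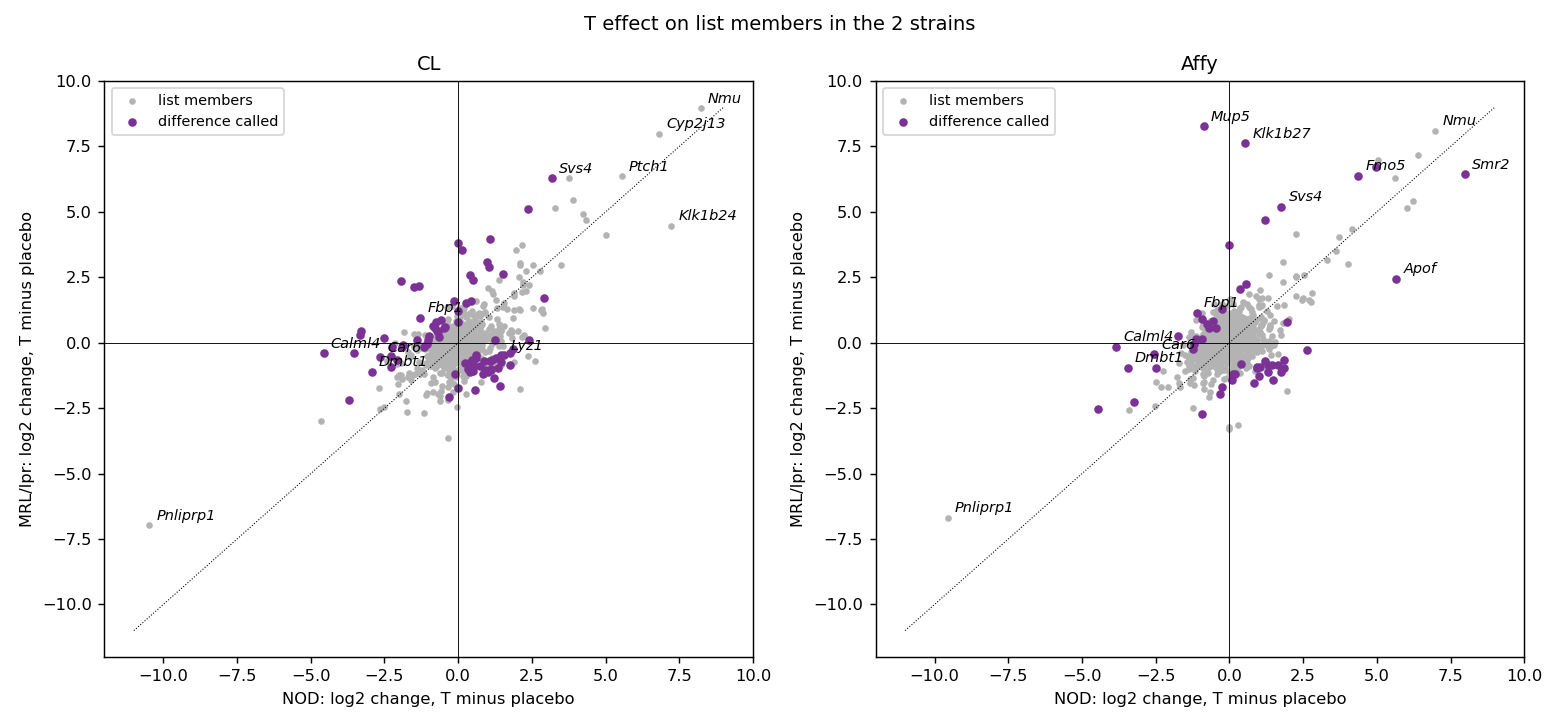
Log2 change with T in NOD (x axis) and MRL/lpr mice (y axis) of the gene list members other than markers, and of Calml4, on CL (left) and Affy (right); purple points had a called difference between the strains and the dotted line marks equal change. Nmu and Pnliprp1 lie near the corners of equal direction, while Calml4 (differences of -4.17 and -3.69) and, on Affy, Mup5 (-9.15) lie far from the line.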

How the data were processed

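RNA from 6 NOD and 6 MRL/lpr pools was hybridized as biotinylated cRNA to both platforms. The CL values deposited by the authors are background-subtracted spot intensities divided by the median of the array, with a quality mark per spot. The Affy values deposited by the authors are linear probe set intensities, for which GCOS is named in the submitters' processing notes. A target of 500 is stated in the study's methods, but the deposited arrays are not on it, so each Affy array was brought to a trimmed mean of 500 here with 2% of probe sets left out at each end. Contaminated, irregular or masked CL spots were left out, values were raised to a floor of 0.5 on CL and 71.2 (0.5 of the platform median) on Affy, and log2 was taken. Probes with at least 1 group mean above the floor were kept, 13615 on CL and 17895 on Affy. Genes were named from the platform annotation, where 11377 CL probes and 20393 Affy probe sets had 1 symbol, 691 Affy probe sets had several and were not named, and 6063 and 1606 had none.

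limma 3.58.1 in R 4.3.3 was fitted with lmFit and eBayes (with trend) to the 4 group means of the 12 arrays of a platform, and p-values were Benjamini-Hochberg adjusted over all probes kept. An "at least" fold sets the mean of the brighter group against that of the dim group, where each array enters with its own signal or with the lowest signal above background (CL) or the floor (Affy), whichever is larger. Arrays carry no read depth, so their number limits the precision. In simulated data the CL fit found 35% of changes of 1 and 81% of changes of 2 on the log2 scale, and the Affy fit 46% and 93%. Changes were planted, 100 of each size, only in probes whose mean lay more than 2 above the floor on that scale. Fewer probes changed there than in the data, so these rates are not those of the real fit or of dim probes. Members and lists were chosen with earlier results of these data known. The genes with values in the text came from a rule that took the largest changes on each and both platforms, the leading or brightest members of each list, and list members with the strongest strain differences. Alternatives covered normalization, scaling, floor, filter, quality marks, background, probe choice, spread, the methods' t-test and leaving out each pool. The pool numbers did not pair T with placebo pools (correlations of deviations -0.04, 0.00 and 0.00 on CL and 0.11, 0.01 and 0.10 on Affy).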

Additional observations from a re-analysis of the deposited data

Results flagged for a closer look

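For 27 of the genes given above the T effect in NOD differed from that in MRL/lpr mice by limma's test of the difference, on 35 gene and platform values, 8 of these genes differing on both platforms. All values in these paragraphs are NOD minus MRL/lpr differences of log2 T effects, and strain, age, treatment length and pool size cannot be told apart in them. Differences of Svs4 and Apof on both platforms, of Klk1b27, Smr2 and Ddc on Affy and of Calml4 and Top2a on CL rest on a NOD group near background, so they are fitted values and no exact sizes.

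Among secretory genes, a smaller rise in NOD was seen for Svs4 (-3.12 on CL and -3.43 on Affy), and a value below that of MRL/lpr for Klk1b27 (-7.10 on Affy), Mup5 (-9.15 on Affy) and Lpo (-1.19 on CL). The NOD change was above that of MRL/lpr for Smr2 (2.28 on CL and 1.54 on Affy), Apof (1.21 on CL and 3.21 on Affy) and Lyz1 (2.02 on CL). Dmbt1 (-1.83 on CL and -2.49 on Affy) and Car6 (-2.10 on CL and -2.12 on Affy) fell further in NOD.

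Among metabolic and protein-modifying genes the differences were negative for Fbp1 (-2.25 on CL and -2.26 on Affy), Gstm1 (-1.41 on CL and -1.51 on Affy), Inmt (-2.28 on Affy), Fmo5 (-2.02 on Affy), Phyh (-1.91 on Affy), Ddc (-1.72 on Affy), Acsm1 (-1.23 on Affy), Adh1 (-0.96 on Affy) and B4galt1 (-1.51 on CL). Among the remaining genes they were negative for Calml4 (-4.17 on CL and -3.69 on Affy), Pgf (-2.02 on CL), Trpm5 (-1.97 on CL), Egf (-1.26 on Affy), Nrg4 (-1.11 on CL) and Krt5 (-1.01 on CL), and positive for Mki67 (2.92 on Affy), Top2a (2.19 on CL) and Fxyd3 (1.18 on Affy).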

How the results depend on the processing

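No called value of a named gene reversed its sign under the alternatives run. Of 143 called values of the genes named, 19 were called under every alternative and 124 were lost under at least 1, of which the methods' t-test after adjustment was the most frequent. The main counts were 769 genes higher and 767 lower on CL, 675 and 421 on Affy, and 269 and 143 on both platforms. List members numbered 91 higher and 104 lower on CL, and 82 and 98 on Affy. Strain differences were 762 on CL and 477 on Affy. Calls also depended on the probe. On Affy only 1 of 2 probe sets was called for Bhlha15, Myh11, Igfbp5, Aldh1l1, Col3a1, Hsp90b1 and Ptgds. It was 1 of 3 for Tsc22d3, Odc1, Id2 and Slc12a2, 2 of 3 for Lyz1 and 3 of 4 for Gstm1. On CL 1 of 2 probes of Fasn was called.

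The methods' t-test left 121 higher and 273 lower on CL after adjustment, and 1384 lower before it. On Affy it left 12 higher and 7 lower, and 898 lower before adjustment. For list members it gave 9 higher and 31 lower on CL (190 lower before adjustment) and 1 higher and 2 lower on Affy (161 lower before), and for both platforms 1 higher and 2 lower (321 lower before). At least 2-fold was reached by 479 of the falls on CL, 273 on Affy and 89 on both, with 58 list members on CL and 62 on Affy. Array weights gave 1408 higher and 1188 lower on Affy, 156 and 224 list members, 977 strain differences and 254 falls on both platforms. Fitting only NOD arrays gave 313 and 177 on Affy, 33 and 37 list members, and 126 and 66 on both platforms. The signals as deposited gave 1150 and 38 on Affy, 130 and 10 list members and 25 falls on both. Of the Affy calls 96.8% were then rises, against 61.6% after scaling. Without NOD T pools 2 and 3, chosen after seeing the data, 906 genes and 151 list members fell and 1269 strain differences were called on Affy. The cause of these shifts was not tested.

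Leaving out 1 pool gave 645 to 819 higher and 619 to 884 lower on CL, 464 to 755 and 231 to 513 on Affy, and 197 to 298 and 89 to 166 on both. The lowest Affy falls came without NOD placebo pools 1 (236) and 2 (231), as did those of list members (55 and 53) and, without placebo pool 2, the falls on both. List members ranged over 74 to 98 higher and 77 to 127 lower on CL, and 55 to 95 and 53 to 132 on Affy. Strain differences ranged over 547 to 741 on CL and 293 to 765 on Affy, with 293 without MRL/lpr placebo pool 1 or 2, 301 and 308 without NOD placebo pools 1 and 2, and 765 without NOD T pool 1. The pool number as a replicate block gave 666 higher and 580 lower on CL and 605 and 369 on Affy, with 508 and 386 strain differences. Affy calls of Hsp90b1, Birc5, Top2a, Fbp1 and Col3a1 and the CL calls of Wfdc12 and Fmo5 were lost under 12 to 21 alternatives each. Those of Aqp5 and Scgb2b27 on Affy were lost under 10 and 9, and those of Rpl4 and Top2a on CL under 10 and 9. Near background, 47.2% to 57.8% of CL spots carry only a bound.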

Other observations

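Counts of further lists stand beside shares over all genes of 8.58% called higher and 8.56% lower on CL, and 6.49% and 4.05% on Affy. Protease inhibitors had 7 of 35 members called higher and 1 lower on CL, and 4 of 36 higher and 1 lower on Affy, and leaving out T pool 2 or placebo pool 2 gave 2 higher on CL, and leaving out T pool 3 or placebo pool 2 gave 0 on Affy. Lipases and apolipoproteins had 2 of 17 called higher and 2 lower on CL, and 3 of 18 higher and 1 lower on Affy. Secretoglobins had 1 of 3 higher and 0 lower on CL, and 0 of 5 higher and 1 lower on Affy. Carbonic anhydrases had 0 called higher and 1 of 6 lower on CL, and 0 higher and 3 of 10 lower on Affy, Car6 among them. The hedgehog, Wnt and BMP pathways had 7 of 45 higher and 6 lower on CL, and 1 of 63 higher and 3 lower on Affy. The insulin-like growth factor axis had 0 of 10 called on CL and 1 of 15 lower on Affy, which was Igfbp5. Amino acid transporters had 1 of 19 higher and 0 lower on CL, and 2 of 22 higher and 3 lower on Affy. Translocon, signal peptidase and vesicle coat genes had 0 higher and 2 of 31 lower on CL, and 0 higher and 1 of 35 lower on Affy.

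Markers of other cell types that a dissected gland could carry were counted too. Skeletal muscle markers had 0 of 10 called on CL and 0 of 14 on Affy, nerve and Schwann cell markers 0 of 3 and 0 of 6, and adipocyte markers 1 of 9 higher and 3 lower on CL and 0 of 9 on Affy. Salivary gland markers had 1 of 4 called higher and 0 lower on CL, and 1 of 9 higher and 1 lower on Affy. The shares over all genes were 8.58% higher and 8.56% lower on CL, and 6.49% and 4.05% on Affy.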
